A study of Homo sapiens with 6 samples.

Results

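FOS, FOSL1, FOSL2, MAFF, IER2 and MYC, a set of immediate early and growth-related transcription genes, were followed in THP-1, a human cell line established from acute monocytic leukaemia, with and without a short hairpin RNA against RKIP. These 6 genes were named with earlier results of these data known. The rule used measured values only to keep, for each gene, the probe with the highest mean over the 6 arrays. They were taken from 14884 genes that could be tied to a gene symbol, and all 6 had a probe. The control cells carried the empty psi-LVRU6GP vector and the RKIP shRNA cells the same vector with the hairpin. Both were selected and kept in 1.5 µg/mL puromycin, so selection is common to both groups. Each group held 3 Affymetrix Human Gene 2.0 ST arrays labelled as biological replicates. The labels name 1 hairpin and no non-targeting hairpin, and they do not say whether replicates came from separate transductions, so the spread that p-values rest on may be technical in part. All values are log2 expression values as deposited, and a value below 4.08, the median of all values, is called dim here.

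RKIP, the Raf kinase inhibitor protein encoded by PEBP1, is known to restrain RAF and the MEK and ERK kinases below it. PEBP1 stood at 9.52, 9.77 and 9.75 in the control arrays and at 8.25, 8.18 and 8.24 in the RKIP shRNA arrays, which left 36.4% of the control level (limma adjusted p = 0.000228). Of 16 monocyte and macrophage markers 10 were measured. Of these, 6 rose and 2 fell, beside 10% and 10.2% of all genes, and the log2 of their summed level ran from 10.84 to 10.90 in control and from 11.89 to 11.95 in RKIP shRNA arrays. LYZ rose by 2.55, TYROBP by 2.37, TLR4 by 1.25, CTSD by 0.79, SPI1 by 0.49 and CD68 by 0.37, while CD86 fell by 0.90 and CD4 by 0.35. CD14 was dim in both groups, at 2.77 and 2.71. Of 4 measured eosinophil and mast cell markers 3 rose, again beside 10% of all genes. The log2 of their summed level ran from 7.01 to 7.10 in control and from 11.98 to 12.11 in RKIP shRNA arrays. CLC and EPX rose by 5.43 and 4.94 and HDC by 0.52, while CPA3 was dim in both groups, at 2.71 and 2.57. Of 6 listed markers each, 2 of fibroblasts, 5 of epithelium and 2 of B cells were measured. Summed fibroblast markers were higher, and summed epithelial and B cell markers lower, in every RKIP shRNA array than in any control array. Within these sums FN1 rose by 0.86 from a dim control value, while THY1 was at -0.10 and did not pass. KRT18 fell by 0.29, and the other 4 measured epithelial markers did not pass. VPREB3 fell by 0.38 to a dim value, and PAX5 was at -0.13 and did not pass. The summed level of 3 measured T cell markers overlapped between the groups, with CD5 at 0.39 and the other 2 not passing. So did the level of KLF1, the 1 erythroid marker measured. These marker lists were written with earlier results of these data known. The part of these shifts in the results below was not tested. The number of arrays, 3 per group, limits the precision of every value.

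Immediate early genes are switched on within minutes of a growth or stress signal without new protein synthesis, largely by factors that ERK and other MAP kinases phosphorylate. FOS, FOSL1 (FRA-1) and FOSL2 (FRA-2) encode FOS-family subunits that pair with JUN proteins to form AP-1. MAFF encodes a small MAF protein, which lacks an activation domain and pairs with NRF2 and related factors. IER2 encodes a short-lived nuclear protein, and MYC encodes the growth regulator that pairs with MAX and drives ribosome assembly and metabolism. In myeloid leukaemia cells, MYC is known for sustaining proliferation, and AP-1 for its part in monocytic differentiation.

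The upstream sequences of 4 of the 6 genes are shown because induction by growth signals is known to run through short elements close to the start of these genes. They come from RefSeq on GRCh38.p14, each being the 250 bases before the annotated start on the plus strand: chr14:75278578-75278827 for FOS, chr2:28392608-28392857 for FOSL2, chr22:38201744-38201993 for MAFF and chr19:13150161-13150410 for IER2. Capitals mark matches, on either strand, to the AP-1 site TGANTCA, the cAMP response element TGACGTCA, its core TGACG, the E-box CACGTG, the TATA box TATAAA and the CArG box bound by SRF. A full cAMP response element also contains the core on both strands.
FOS: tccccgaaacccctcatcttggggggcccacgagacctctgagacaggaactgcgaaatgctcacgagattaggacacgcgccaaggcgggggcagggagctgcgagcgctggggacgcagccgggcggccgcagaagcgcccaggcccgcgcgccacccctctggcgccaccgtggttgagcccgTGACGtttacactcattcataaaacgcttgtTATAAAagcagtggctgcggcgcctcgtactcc
FOSL2: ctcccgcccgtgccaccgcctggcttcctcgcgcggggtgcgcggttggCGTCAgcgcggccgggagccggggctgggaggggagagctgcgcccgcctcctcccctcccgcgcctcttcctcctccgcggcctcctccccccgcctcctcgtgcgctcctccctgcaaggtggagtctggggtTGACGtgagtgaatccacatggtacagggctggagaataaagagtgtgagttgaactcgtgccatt
MAFF: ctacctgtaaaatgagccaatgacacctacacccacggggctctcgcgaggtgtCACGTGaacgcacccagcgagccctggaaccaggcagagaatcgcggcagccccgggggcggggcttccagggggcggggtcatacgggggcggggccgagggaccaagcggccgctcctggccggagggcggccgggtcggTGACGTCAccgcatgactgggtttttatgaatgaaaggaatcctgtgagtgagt
IER2: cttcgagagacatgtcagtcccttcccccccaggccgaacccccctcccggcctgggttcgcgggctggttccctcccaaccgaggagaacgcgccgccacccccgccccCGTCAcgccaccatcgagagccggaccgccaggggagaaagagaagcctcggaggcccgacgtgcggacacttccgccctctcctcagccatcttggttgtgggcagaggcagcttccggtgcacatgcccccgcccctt
The core TGACG was found in all 4 windows, 64 to 60 bases before the start of FOS and 66 to 62 bases before that of FOSL2, with a further match in FOSL2 and 1 in IER2. Among 35116 promoter windows of 250 bases, 21.2% held it. The window of MAFF held the full TGACGTCA, present in 1.65% of windows, and an E-box, present in 6.34%. The TATA box was found in FOS, against 10.7% of windows. No window held TGANTCA, which 6.57% of windows held, or a CArG box, which 1.16% held. The upstream sequences of FOSL1 and MYC were not searched. Nor were bases farther than 250 from the start of the 4 genes shown, which may carry such sites there. These matches describe letters in these windows and are no evidence of binding.

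Within the FOS family, FOSL1 rose and FOSL2 fell by almost the same amount. FOSL1 stood at 7.23, 7.41 and 7.55 in the control arrays and at 7.88, 8.19 and 8.06 in the RKIP shRNA arrays. Every RKIP shRNA array lay above every control array, and the log2 change was 0.65 (SE 0.11, 95% interval 0.38 to 0.92, limma adjusted p = 0.00840), which is 1.57-fold. FOSL2 stood at 7.22, 7.39 and 7.40 in control and at 6.55, 6.84 and 6.66 in RKIP shRNA arrays. Here every RKIP shRNA array was the lower, and the log2 change was -0.66 (SE 0.10, interval -0.89 to -0.43, adjusted p = 0.00439), or 1.58-fold lower. In bulk RNA, fewer cells that express a gene and less RNA per cell cannot be told apart.

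Of the 6 genes, 4 passed the test, 1 upward and 3 downward, beside 20.2% of all genes tested. The groups did not overlap for the same 4 genes, beside 37.9% of all genes (19.8% with the RKIP shRNA arrays higher and 18.1% with them lower). All 4 passed again whichever single array was left out, with adjusted p at most 0.0322 for FOSL1, 0.0213 for FOSL2, 0.0360 for IER2 and 0.0336 for MYC.

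**Figure D1:**
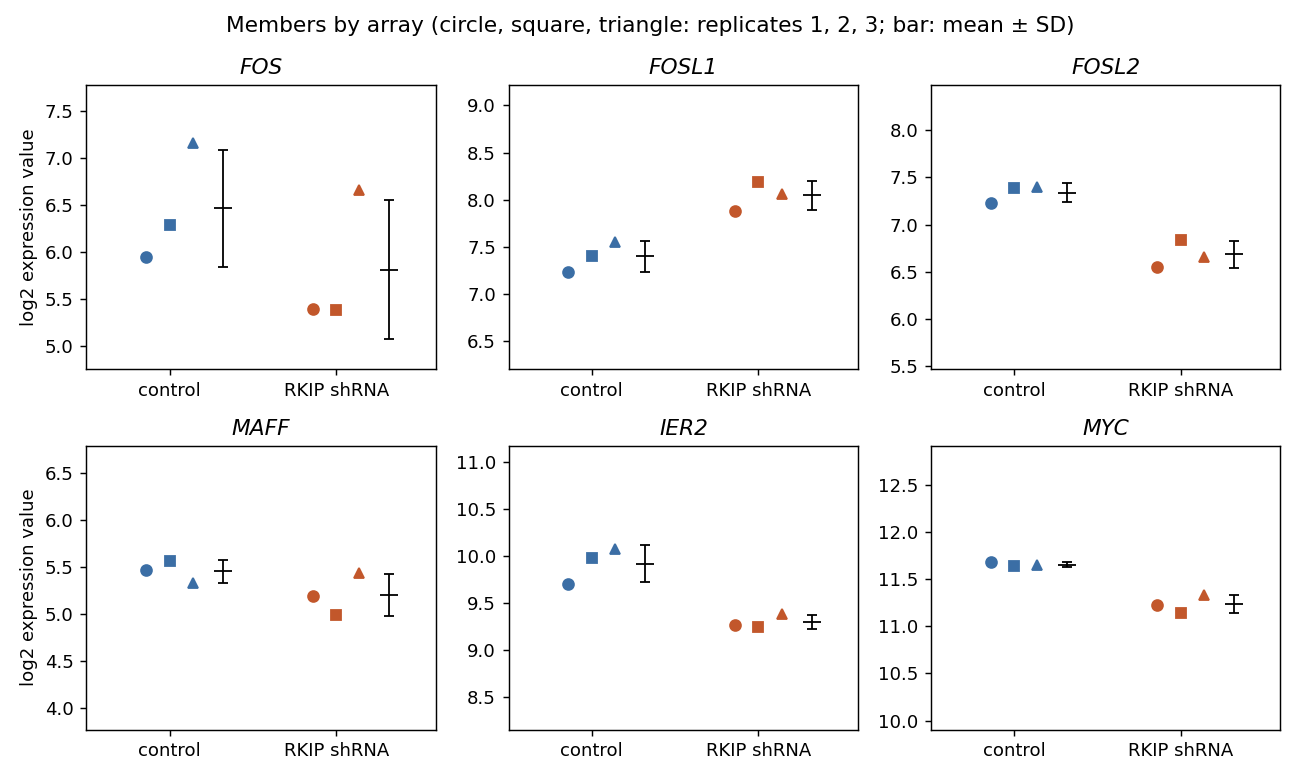
Log2 expression values of the 6 genes in each array, with control arrays in blue and RKIP shRNA arrays in orange; circles, squares and triangles are replicates 1, 2 and 3, and the bar is the mean ± SD (n = 3). All panels span the same number of log2 units; FOSL1 is higher, FOSL2, IER2 and MYC are lower, and FOS and MAFF overlap between the groups.

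The balance of FOSL1 against FOSL2 within each array varied less within the groups than either gene did. The log2 difference between the probes, FOSL1 minus FOSL2, was 0.01, 0.01 and 0.15 in control arrays and 1.33, 1.35 and 1.40 in RKIP shRNA arrays. Its SD was 0.08 in control and 0.04 in RKIP shRNA arrays, below the SDs of FOSL1 (0.16 and 0.15) and of FOSL2 (0.10 and 0.15). The difference changed by 1.30 on the log2 scale, a 2.47-fold shift in the ratio. This is a description: FOSL1 was higher and FOSL2 lower in every RKIP shRNA array, so the exact two-sided permutation p was bound to be 0.10, the smallest that 3 arrays against 3 allow. Array scaling cancels in this quantity, which ran from 1.28 to 1.35 over its alternatives. It shows unequal change of the probes, not which transcript was more abundant.

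**Figure D2:**
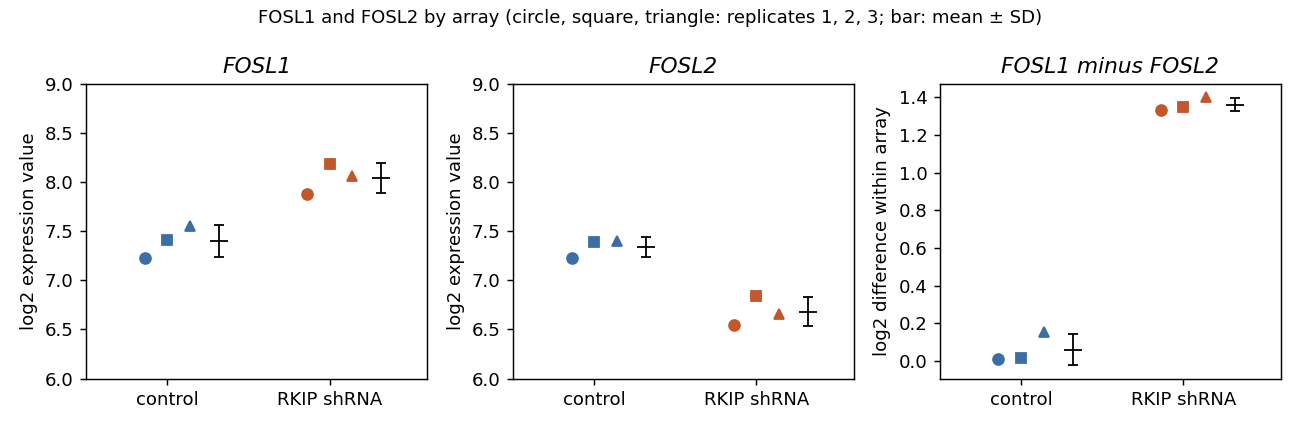
Log2 values of FOSL1 and of FOSL2, and their difference within each array, by group; circles, squares and triangles are replicates 1, 2 and 3 and bars are the mean ± SD (n = 3). The difference lies between 0.01 and 0.15 in control arrays and between 1.33 and 1.40 in RKIP shRNA arrays.

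FOS itself did not pass, although its mean change was as large as that of FOSL2. It stood at 5.95, 6.29 and 7.15 in control arrays and at 5.40, 5.38 and 6.66 in RKIP shRNA arrays, so the groups overlapped. The log2 change was -0.65 (SE 0.42, interval -1.65 to 0.35, adjusted p = 0.354), which covers both a fall larger than that of any other of the 6 genes and a rise. The within-group SD of FOS was 0.68, 5.59 times the median of all genes (0.12), and 99.9% of genes had a smaller one. The other 5 genes had within-group SDs from 0.07 for MYC to 0.18 for MAFF. A second FOS probe, near the dim limit at 4.58 ± 0.18 and 4.43 ± 0.11 (SD, n = 3 each), had a log2 change of -0.15 and did not show this spread.

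The array labelled replicate 3 was the highest for FOS in both groups, by 1.03 above the mean of the other control arrays and by 1.27 above the mean of the other RKIP shRNA arrays. FOSB, JUN and EGR1 shared this pattern. FOSB, another FOS-family subunit, stood at 5.80, 6.30 and 6.71 in control and at 6.04, 6.17 and 6.54 in RKIP shRNA arrays. JUN, the founding JUN subunit, stood at 6.49, 7.17 and 7.85 and at 7.19, 7.10 and 7.57. EGR1, a zinc finger factor induced with FOS, stood at 9.42, 9.66 and 9.90 and at 9.07, 9.34 and 9.76. In each of these genes the highest array of either group was replicate 3, and the groups overlapped.

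With a margin of 0.3 in both groups, chosen after the values were seen, these 4 were the ones among 30 measured AP-1 and other immediate early genes, and 0.759% of all genes met it. FOSL1, FOSL2, IER2 and MYC did not, their lower excess of both replicate 3 arrays running from -0.03 to 0.13. Nothing in the labels says that equal replicate numbers mark a shared day or culture. Without both replicate 3 arrays, a choice also made after the data were seen, FOS had a log2 change of -0.73 and an adjusted p of 0.0445. In that smaller fit FOSL2 (-0.61, adjusted p = 0.0603) and IER2 (-0.58, adjusted p = 0.0559) no longer passed.

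**Figure D3:**
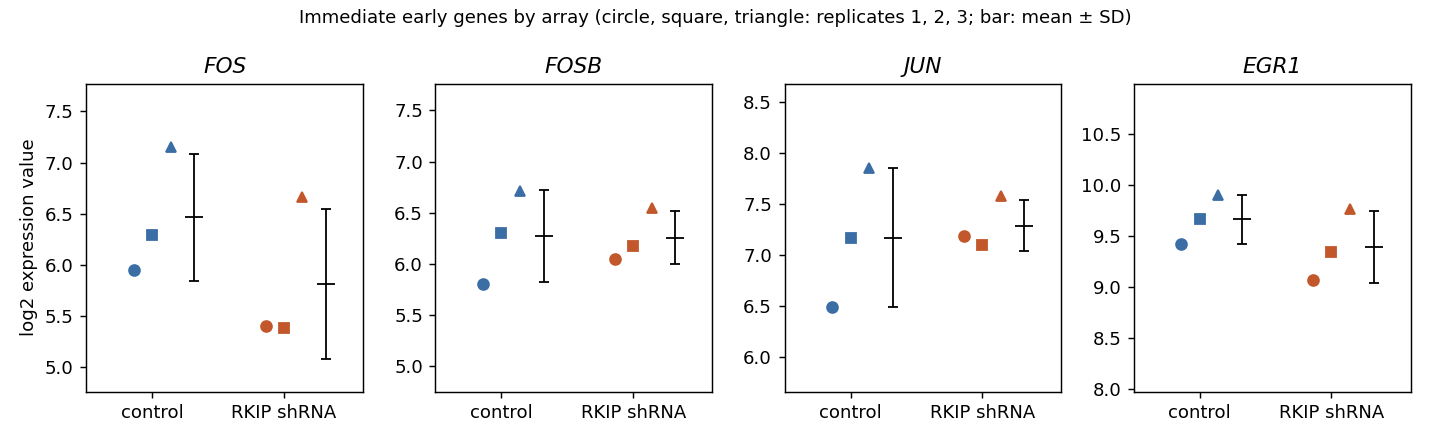
Log2 values of FOS, FOSB, JUN and EGR1 in each array by group, all panels spanning the same number of log2 units; triangles are replicate 3, circles and squares replicates 1 and 2, and bars the mean ± SD (n = 3). The triangle is the highest point of each group in all 4 panels.

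Of 14 listed AP-1 subunits and close partners 10 were measured, of which 1 rose, 2 fell and 7 did not pass, beside 10% of all genes that rose and 10.2% that fell. The rise was that of FOSL1 and 1 of the falls that of FOSL2. Among the 7 measured genes other than FOS, FOSL1 and FOSL2, log2 changes ran from -0.29 to 0.29, 1 fell and 6 did not pass, and the groups did not overlap for 4 of them, beside 37.9% of all genes. ATF3, a stress-induced partner, fell from 5.88 ± 0.08 to 5.59 ± 0.03 (SD, n = 3 each; adjusted p = 0.0277), and in 5 of the 6 fits with 1 array left out it did not pass. Among the JUN partners, log2 changes were 0.12 for JUN (adjusted p = 0.853), -0.04 for JUNB and 0.14 for JUND. JUND, which is known for steady rather than induced expression, had every RKIP shRNA array above every control array but did not pass (adjusted p = 0.236). FOSB had a log2 change of -0.02.

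MAFF did not pass. It stood at 5.47, 5.57 and 5.32 in control arrays and at 5.19, 4.99 and 5.43 in RKIP shRNA arrays, with 1 RKIP shRNA array inside the control range. Its log2 change was -0.25 (SE 0.13, interval -0.55 to 0.05, adjusted p = 0.228). None of 8 measured genes of the MAF family and its partners passed the limma test, beside 20.2% of all genes, and NFE2L3 alone had an unadjusted p under 0.05, with a log2 change of 0.43 (adjusted p = 0.116). MAFG, another small MAF gene, was at 0.16, and NFE2L2, which encodes NRF2, at 0.08.

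Genes commonly held to be bound by NRF2 with a small MAF rose in part. Of 11 measured, 5 rose and 6 did not pass, beside 10% of all genes that rose. Earlier results of these data were known when this list was written. PRDX1, a peroxiredoxin that removes peroxide, rose from 9.94 ± 0.07 to 11.02 ± 0.12 and SRXN1, which repairs peroxiredoxins, from 6.26 ± 0.16 to 6.99 ± 0.11 (SD, n = 3 each). TALDO1, of the pentose phosphate pathway, rose by 0.39 and did not pass without both replicate 3 arrays (adjusted p = 0.082). SQSTM1, an autophagy receptor gene, rose by 0.33 but lost its call whichever array was left out. The count fell to 3 without control replicate 2 or 3 and without any 1 RKIP shRNA array. HMOX1, a classical target of NRF2 and its repressor BACH1, had a log2 change of -0.13 (adjusted p = 0.474).

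IER2 fell in RKIP shRNA cells. It stood at 9.69, 9.97 and 10.07 in control arrays and at 9.26, 9.25 and 9.38 in RKIP shRNA arrays. The groups did not overlap, and the log2 change was -0.62 (SE 0.11, interval -0.88 to -0.36, adjusted p = 0.00853), or 1.53-fold lower. Of 36 listed immediate early genes outside the AP-1 family, IER2 included, 20 were measured, of which 1 rose, 2 fell and 17 did not pass. The share that passed was 15%, near the 20.2% of all genes.

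The other gene of that list that fell was DUSP1, an inducible phosphatase of p38, JNK and ERK. DUSP1 stood at 5.22, 5.48 and 5.61 in control and at 4.77, 4.50 and 4.51 in RKIP shRNA arrays, a log2 change of -0.84 (SE 0.13, adjusted p = 0.00451). Without both replicate 3 arrays DUSP1 did not pass (adjusted p = 0.0530). MCL1, the short-lived survival protein of the BCL2 family, rose from 8.99 ± 0.09 to 9.48 ± 0.15 (SD, n = 3 each). Its adjusted p of 0.0142 became 0.0502 without control replicate 1. IER3 and IER5 had log2 changes of 0.11 and -0.02, and EGR1 was at -0.27 (adjusted p = 0.402). SRF, the factor that binds CArG boxes, was at 0.17 and did not pass, though its groups did not overlap.

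Among 12 measured factors known to act at immediate early promoters, 2 rose and 1 fell, or 25%, near the 20.2% of all genes. The rises were in MRTFA, an actin-regulated SRF cofactor, at 0.32 and in CREM, a relative of CREB, at 0.31 from a dim control value. Each lost its call in 5 of the 6 fits with 1 array left out, though not in the same 5. MEF2C fell by 0.42 and did not pass in 2 such fits, and its probes averaged gave a log2 change of -0.08. Of 7 measured MAP kinase genes 1 rose, beside 10% of all genes. MAP2K3, the kinase upstream of p38, rose from 6.49 ± 0.07 to 7.00 ± 0.13 (SD, n = 3 each; adjusted p = 0.00745). It did not pass without both replicate 3 arrays (adjusted p = 0.0534). MAP2K1 and MAPK3, of the ERK cascade, were at -0.01 and -0.05.

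Of 12 measured genes of ERK feedback and output, 2 rose and 2 fell, beside 10% and 10.2% of all genes. DUSP6, an ERK phosphatase, stood at 10.04, 10.13 and 10.04 in control and at 9.30, 9.43 and 9.54 in RKIP shRNA arrays (adjusted p = 0.00264). ETV5, an ETS factor induced by ERK, fell by 0.50 (adjusted p = 0.0129). The phosphatase gene DUSP7 and the cyclin gene CCND1 rose by 0.28 and 0.38, and did not pass in 6 and 5 of the 6 fits with 1 array left out.

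**Figure D4:**
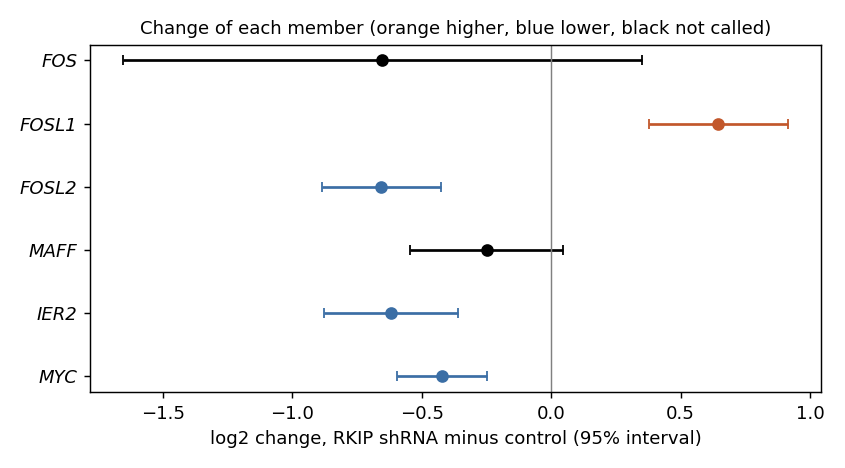
Log2 change of each of the 6 genes, RKIP shRNA minus control, with its 95% interval from limma (3 arrays per group). The interval of FOSL1 lies above 0, those of FOSL2, IER2 and MYC below 0, and those of FOS (-1.65 to 0.35) and MAFF (-0.55 to 0.05) include 0.

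MYC fell by a small amount with little spread. It stood at 11.68, 11.64 and 11.65 in control arrays and at 11.23, 11.14 and 11.34 in RKIP shRNA arrays. The groups did not overlap, and the log2 change was -0.42 (SE 0.07, interval -0.60 to -0.25, adjusted p = 0.00826), or 1.34-fold lower. Its within-group SD was 0.58 times the median of all genes.

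In the dimer network of MYC, 11 of 13 genes were measured, of which 1 rose, 3 fell and 7 did not pass, beside 10% of all genes that rose and 10.2% that fell. MXI1, a MAX partner that opposes MYC, fell from 7.18 ± 0.05 to 6.56 ± 0.11 (SD, n = 3 each; adjusted p = 0.00264). MGA, a large repressor that also pairs with MAX, stood at 9.78, 9.75 and 9.80 in control and at 9.46, 9.47 and 9.47 in RKIP shRNA arrays (adjusted p = 0.0128, and 0.0517 without control replicate 3). MXD3, another MAX partner opposed to MYC, rose by 0.53. With both MXD3 probes averaged the log2 change was 0.16 and did not pass (adjusted p = 0.223). MAX itself was at -0.07 (adjusted p = 0.554), and its relative MLX was at -0.04.

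Of 8 measured cofactors and regulators of MYC stability, 3 rose and 1 fell, beside 10% and 10.2% of all genes. RUVBL1 and RUVBL2, the paired ATPases of chromatin remodelling complexes, rose by 0.50 and 0.47 (adjusted p = 0.00733 and 0.00436). Neither passed without both replicate 3 arrays (adjusted p = 0.0692 and 0.0588). TRRAP, a scaffold of histone acetyltransferase complexes, rose by 0.23, a call lost whichever array was left out. ZBTB17 (MIZ-1), through which MYC is known to repress genes, fell by 0.31 (adjusted p = 0.0141, and 0.0578 without control replicate 2).

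Genes commonly held to be activated by MYC were mostly higher in the RKIP shRNA cells, in which MYC was lower. Of 53 listed genes 31 were measured: 20 rose, 2 fell and 9 did not pass, beside 10% of all genes that rose and 10.2% that fell. Their median log2 change was 0.31 against 0.02 for all genes. The list was written with earlier results of these data known, and many of its members encode ribosome assembly factors.

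RRP12, which acts in ribosomal subunit export, stood at 8.18, 8.23 and 8.31 in control and at 8.996, 8.999 and 9.016 in RKIP shRNA arrays, a log2 change of 0.76 (SE 0.07, adjusted p = 0.000668). GRWD1 and MRTO4, both of ribosome assembly, rose by 0.82 and 0.79, and PHB1, the prohibitin of the inner mitochondrial membrane, by 0.76. Named after their values were seen, the 2 that fell were TERT, the telomerase catalytic subunit, at -0.78 and SHMT2, of mitochondrial one-carbon metabolism, at -0.37. NCL and FBL, the nucleolar proteins nucleolin and fibrillarin, were at -0.11 and 0.05 and did not pass. From 14 to 17 of these genes rose in fits that left out 1 array, 13 rose at an adjusted p under 0.01, and 10 rose without both replicate 3 arrays. Of 3 measured genes commonly held to be repressed by MYC 1 fell, beside 10.2% of all genes. NDRG1 fell by 0.46 (adjusted p = 0.00703, and 0.0744 without both replicate 3 arrays). TXNIP and NDRG2 were at -0.12 and -0.04.

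Genes commonly held to carry AP-1 sites went both ways. Of 17 measured, 8 rose, 3 fell and 6 did not pass, beside 10% of all genes that rose and 10.2% that fell. The median log2 change of the 17 was 0.38, and this list too was written with earlier results of these data known. The chemokine gene CXCL8 stood at 4.75, 4.21 and 4.76 in control and at 7.51, 7.41 and 7.95 in RKIP shRNA arrays. ANXA1, annexin A1, rose by 2.12 and TNF by 1.29. The 3 that fell were VEGFA at -0.69 and, named after their values were seen, the adhesion receptor gene CD44 at -0.45 and CDKN2A, a cell cycle inhibitor gene, at -0.84. Without both replicate 3 arrays 5 of the 17 rose. The collagenase gene MMP1, a textbook AP-1 target, was dim in both groups, at 1.95 and 2.17.

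**Figure D5:**
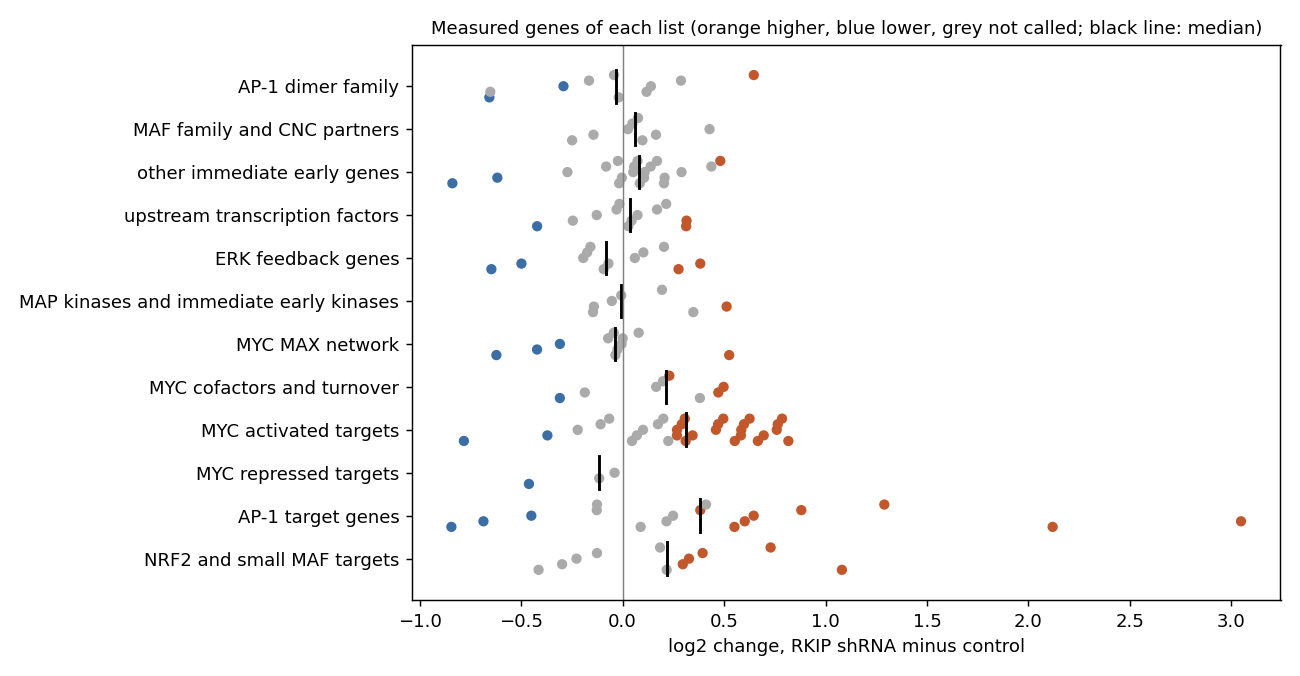
Log2 change, RKIP shRNA minus control, of every measured gene in the 12 lists; orange points rose and blue points fell at an adjusted p under 0.05, grey points did not pass, and the black line is the list's median. The genes held to be activated by MYC sit mostly to the right of 0 (20 of 31 rose), while the AP-1 and MAF families sit on both sides of it.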

How the data were processed

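Total RNA of 6 THP-1 cultures (250 ng each, per the labels) was hybridised to Affymetrix arrays. The deposited table held 53617 rows of values taken to be on a log2 scale from their range, 0.72 to 14.0, and array medians of 4.06 to 4.10. How the authors summarised and normalised them, and on which build, is not given in the sources used here. The array annotation gave 1 symbol to 16098 rows. The probe with the highest mean was kept for each of 14884 genes, and symbols were updated through RefSeq.

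RKIP shRNA minus control was tested with limma 3.58.1 (lmFit, eBayes; R 4.3.3), 3 arrays against 3 and with no filter, and a gene passed at an adjusted p (Benjamini-Hochberg over all genes) under 0.05. The number of arrays limits the precision. On simulated data with 200 of 14884 genes changed, the fit recovered 41.3%, 84% and 98.9% of log2 changes of 0.5, 1 and 2. Of the calls, 4.34% were false. The real data had a larger share of called genes, 20.2%, and recovery at such a share was not simulated.

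The members, the 12 gene lists and the cell type marker lists were chosen with earlier results of these data known. Named in each list were the 4 called genes with the smallest p, and the 2 largest changes in a list with no call. Other genes were named after their values were seen, as examples of list members. The likeness of genes was the root mean square difference of their array values after centring. Alternatives were the replicate number as a block, array weights, a brightness filter, quantile normalisation, median centring, a robust trended prior, all rows tested together, averaging all probes per gene, an adjusted p under 0.01 and leaving out each array. Scanner files were not used here. No batch is given in the labels.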

Additional observations from a re-analysis of the deposited data

How the results depend on the processing

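FOSL1 and MYC kept their direction and call under all 16 alternatives, with log2 changes from 0.56 to 0.73 and from -0.48 to -0.37. FOSL2 and IER2 did so in 15 of 16, from -0.73 to -0.59 and from -0.73 to -0.54, the exception being the fit without both replicate 3 arrays (-0.61 and -0.58). MAFF ran from -0.43 to -0.14 and passed under none. FOS ran from -1.08 to -0.31 when 1 array was left out. It passed without both replicate 3 arrays (-0.73) and with the replicate number as a block (-0.65, adjusted p = 0.0233, SE 0.11). Deviations from the group means over all genes gave no sign of pairing: same-numbered arrays correlated at 0.02, 0.00 and -0.02. This does not bear on the smaller set of FOS, FOSB, JUN and EGR1, which were highest in replicate 3 of both groups, and a shared day or culture was not tested. With the replicate block the calls of the other 5 genes did not change. Genes called higher numbered 1495, and 963 to 1212 when 1 array was left out (lowest without RKIP shRNA replicate 1, and 969 and 983 without control replicates 2 and 3), and genes called lower numbered 1515, and 1018 to 1270. These counts were 839 and 935 with all rows tested together, where both the adjustment and the moderated variance differ (the cause was not tested), 697 and 775 at the stricter threshold, and 529 and 703 without both replicate 3 arrays, which has fewer samples. Of 384 list counts under alternatives, 310 stayed within 1.5 times. Quantile normalisation and median centring moved the median change of all genes from 0.02 to 0.03. No detection call was available, which leaves absence of a dim transcript undecided.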

Other observations

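For each of the 6 genes, the protein-coding genes with the closest pattern over the 6 arrays were sought by the root mean square difference of values centred on each gene's mean, a description with no test. MYC had the closest match, CEPT1, a phospholipid synthesis enzyme gene, at 0.02 log2 units (log2 change -0.42), followed by VPS13A, a lipid transfer protein gene, also at 0.02 (-0.40). FOSL2 was closest to FZD3, a Wnt receptor gene, at 0.05 and to ACTMAP, an actin maturation protease gene, at 0.05. IER2 was closest to NBEA, neurobeachin, at 0.05 and to KLHL32 at 0.07, the latter dim in RKIP shRNA cells. FOSL1 was closest to LIMK1, a kinase of actin turnover, and to PYCR3, a proline synthesis enzyme gene, both at 0.07. MAFF was closest to SHTN1 at 0.03 and to BTNL8, dim in both groups, at 0.05. The nearest to FOS were TNNC2 at 0.34 and FCN2, dim in RKIP shRNA cells, at 0.35. These distances are not scaled to a gene's spread. Of the 6 genes, FOS had the largest within-group SD (0.68) and MYC the smallest (0.07).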
